A study of Mus musculus with 30 samples.

Results

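The hippocampus of 10 mice fed the low dose of methylmercury (MeHg) was compared with that of 10 mice fed without added MeHg, pooled over 2 diets with the diet held as a covariate. These 20 mice were chosen by their labels alone, from 30 mice in all, and each gave 1 RNA sequencing library. All were male BALB/c mice that arrived at an age of 2 to 3 weeks and ate the experimental feed for 11 weeks. The 5 Ctr mice had neither added mercury nor added selenium. The 5 LD mice had feed with 0.28 mg MeHg per kg, given as a complex with cysteine, and the Ctr feed held cysteine alone. The 5 Se_Ctr mice had selenium and no mercury, and the 5 Se_LD mice had selenium and the low dose. The series names the selenium source as selenium-methionine, its level in the feed is not given in the sources used here, and the stated dose belongs to the LD feed. The other 10 mice had a high dose of 5 mg MeHg per kg, without (HD) or with selenium (Se_HD), and serve here only for values set beside those of the low dose. The animals of a group were separate mice, so the errors below hold the spread between mice.

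MeHg is an organic form of mercury that crosses the blood-brain barrier as a complex with cysteine and binds to thiols and selenols. Its targets include glutathione, the thioredoxin system and the selenoproteins, and cells answer it with the antioxidant factor NRF2, with metallothioneins and, in the brain, with activation of astrocytes and microglia. Selenium given in the diet forms complexes with mercury and feeds the synthesis of selenoproteins. The pooled comparison asks which transcripts differ at the low dose irrespective of selenium in the feed.

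Between 5768208 and 11510521 reads per library were counted on genes. The mean was 9086658 reads at the low dose and 8356933 without mercury, a difference of 729725 reads that an exact two-sided permutation test within diets did not separate from 0 (p = 0.3, 63504 arrangements). Of 22 marker genes of the hippocampal subfields, 21 had reads in all 20 libraries, and their summed level lay between 10338 and 13824 normalized counts in the 20 libraries. A normalized count is the number of reads of a gene divided by the size factor of its library. Ctr mouse 2 stood apart in RNA make-up. Ribosomal and 7SK RNA took 13.9% of its reads and between 1.49% and 3.48% in the other 19 libraries.

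Of 20552 genes tested with limma, 0 passed an adjusted p (Benjamini-Hochberg) of 0.05, and no adjusted p was lower than 1. edgeR and DESeq2 on the recovered reads also gave 0 genes, with 565 and 420 at an unadjusted p under 0.05. At an unadjusted p under 0.05, the threshold of the study, 529 genes (2.57% of those tested) differed, of which 303 (1.47%) were higher and 226 (1.10%) lower at the low dose. The share of higher genes among them, 57.3%, was 43.1% with the level of thalamus genes as a covariate and 71.6% with that of meninges genes. Of these 529 genes, 59% averaged under 10 normalized counts. Among the 14264 genes averaging 10 or more, 217 genes (1.52%) had an unadjusted p under 0.05. A gene is said to differ, or to be higher or lower in a count of genes, when its unadjusted limma p was under 0.05. For genes given one by one, the two-sided p of an exact permutation test of the log2 values is printed, in which the dose labels were rearranged within each diet (63504 arrangements over both diets, and a smallest p of 0.00794 within 1 diet). These exact p are not adjusted either.

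For genes averaging 10 or more normalized counts, the median absolute log2 fold change of the low dose was 0.054, and the 95% confidence interval reached a median of 0.191 to either side. The interval lay within a 1.5-fold change either way for 12829 of the 14264 genes (89.9%). With a mean of at least 100 the share was 98.9%, or 9161 of 9259 genes. These intervals are per gene and are not adjusted for the number of genes. Over all genes tested, the low dose took 4.9% of the sum of squares of log2 values, diet 5% and their interaction 4.9%. Arrangements of the dose labels within diets gave a mean of 5.28% for the dose, and 4.9% was not above it (one-sided exact permutation p = 0.784).

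The pooled effect rests on 2 comparisons that share no mouse. LD differed from Ctr in 946 genes (4.60%), 471 higher (2.29%) and 475 lower (2.31%). Se_LD differed from Se_Ctr in 363 genes (1.77%), 208 higher (1.01%) and 155 lower (0.754%). In both sets were 21 genes, of which 11 had the same sign. That is 2.22% of the 946 genes and 5.79% of the 363 genes. Of the 946 genes, 413 (43.7%) had the same sign in the selenium diet, beside 46.5% of all genes tested. Of the 363 genes, 156 (43%) had the same sign without selenium. Over the 14264 genes with a mean of at least 10, Pearson's r between the log2 fold changes of the 2 diets was -0.05 and Spearman's coefficient was -0.12. That correlation is a description across genes, which are not independent of each other. The SD of the log2 fold changes was 0.202 without and 0.163 with selenium. Under the alternatives that correlation lay between -0.24 and 0.13, on both sides of 0.

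**Figure D1:**
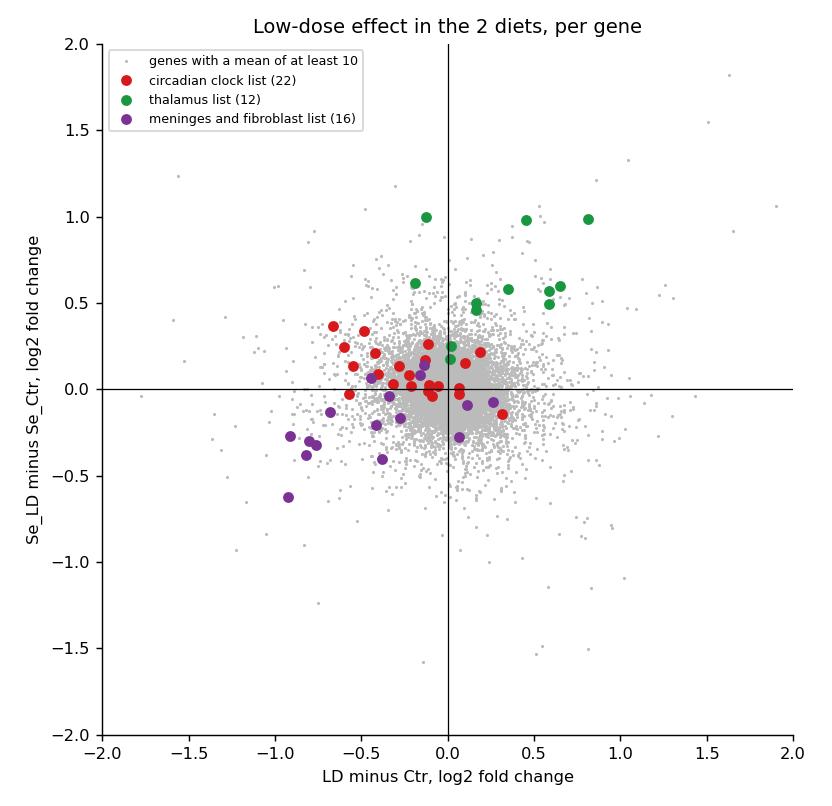
Log2 fold change of the low dose for each gene averaging 10 or more normalized counts, without selenium (x axis, LD minus Ctr) and with selenium (y axis, Se_LD minus Se_Ctr), with 3 gene lists in colour and 1 gene beyond the axes. Pearson's r across the 14264 genes was -0.05, the clock genes with the largest changes lie to the left of 0, thalamus genes mostly above 0 on the y axis, and most meninges genes to the left of 0.

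No gene averaging 10 or more normalized counts had its low-dose mice wholly above, or wholly below, the mice without mercury in both diets in the same direction (0 of 14264 genes, 0.00%). In 1 diet alone such a gap was seen in 47 genes without selenium (0.330%) and in 68 genes with selenium (0.477%). Only Gpr151, an orphan receptor gene of habenula neurons, differed in both diets in the same direction among genes averaging 10 or more. Another 6 such genes differed in both diets in opposite directions. They include Cav1, the coat protein of caveolae, and Gna13, a G protein subunit.

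The genes with the lowest p at the low dose are described as 2 kinds by their spread over mice, and some genes shared traits of both. In some, most low-dose mice of both diets lay above or below the mice without mercury. In others a few libraries stood far from the rest. Clec18a (chromosome 8, 113593398 to 113605988, build NCBIM37), a C-type lectin gene, was of the first kind. The gene had 7.25, 20.4, 3.78, 7.89 and 14.1 normalized counts in the Ctr mice and 16.7, 20.6, 19.3, 29.7 and 36.1 in the LD mice. The Se_Ctr mice had 12.3, 17.3, 17.6, 9.86 and 15.7, and the Se_LD mice had 19.9, 15.9, 21.1, 41.4 and 19.4. All but 1 of the Ctr mice lay below every LD mouse, and with selenium the groups overlapped only through the lowest Se_LD mouse. The highest values of Clec18a, 29.7, 36.1 and 41.4, were those of LD mice 4 and 5 and Se_LD mouse 4, which were also high in habenula genes. The log2 fold change over both diets was 0.93 ± 0.24 (SE), with an exact p = 0.000882.

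Eomes (chromosome 9, 118387330 to 118395250), a transcription factor of intermediate progenitors in the dentate gyrus and of Cajal-Retzius cells, had 4.11 ± 3.82 normalized counts in Ctr, 17.7 ± 11.8 in LD, 7.73 ± 8.58 in Se_Ctr and 14.2 ± 8.9 in Se_LD (mean ± SD, n = 5 mice each). The highest Se_Ctr mouse, at 22.8, lay above 4 of the 5 Se_LD mice. The log2 fold change was 1.48 ± 0.42 (exact p = 0.00813). Eomes was the only gene of the 14 in the list of neurogenesis and proliferation that differed, beside 2.57% of all genes tested. Of these 14 genes, 10 had a mean of at least 10, with a median log2 fold change of 0.08. Prkcq (chromosome 2, 11093740 to 11222853), which encodes protein kinase C theta, had 80.5 ± 26.4 normalized counts in Ctr and 118 ± 9.35 in LD. With selenium it had 75.2 ± 6.96 without and 102 ± 36.2 with the low dose, where 2 mice, at 59.3 and 68.5, lay below every Se_Ctr mouse. Its log2 fold change was 0.48 ± 0.14 (exact p = 0.00872).

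A further 5 of the 10 higher genes with the lowest p had log2 fold changes from 0.22 to 0.77. Kcnip1, which encodes an auxiliary subunit of Kv4 potassium channels, had 83.3 ± 7.33 normalized counts in Ctr, 106 ± 17.2 in LD, 83.2 ± 12 in Se_Ctr and 100 ± 10.1 in Se_LD. Fads6, a fatty acid desaturase family gene, had 276 ± 19.4, 318 ± 23.1, 274 ± 11.7 and 328 ± 66.1 in the same order. Ebpl had 53.2 ± 15.8, 75.9 ± 7.56, 64.8 ± 12.5 and 73.8 ± 4.56. Their log2 fold changes were 0.30 (exact p = 0.00233), 0.22 (exact p = 0.00265) and 0.38 (exact p = 0.00696). Sspo, which encodes SCO-spondin of the subcommissural organ, had means of 12.4 in Ctr, 17.7 in LD, 8.62 in Se_Ctr and 18.03 in Se_LD, with a log2 fold change of 0.77 (exact p = 0.00608). Emid1, an extracellular matrix gene, had a log2 fold change of 0.53 (exact p = 0.00595). In each of these 5 genes the groups overlapped in both diets, and in Emid1 without selenium through 1 LD mouse alone. All 10 genes with the lowest p among those higher, and all 10 among those lower, kept a limma p under 0.05 in each of the 20 fits that left out 1 library. Without the 4 low-dose libraries high in habenula genes, given further on, 5 of the 10 higher genes (Gpr151, Prkcq, Kcnip1, Fads6 and Emid1) and 1 of the 10 lower genes (Tagap) no longer had a limma p under 0.05. The log2 fold changes of Kcnip1 and Fads6 were then 0.18 and 0.12 (exact p = 0.0395 and 0.0252). Emid1 was at 0.44 instead of 0.53 (exact p = 0.0523) and Tagap at -0.47 instead of -0.65 (exact p = 0.0434), with 16 libraries in place of 20. Among all 20 libraries, Kcnip1 was highest in LD mice 4 and 5 and Se_LD mouse 4, which belong to these 4. Fads6 was highest in LD mouse 5 and Se_LD mice 1 and 4, which also belong to them.

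**Figure D2:**
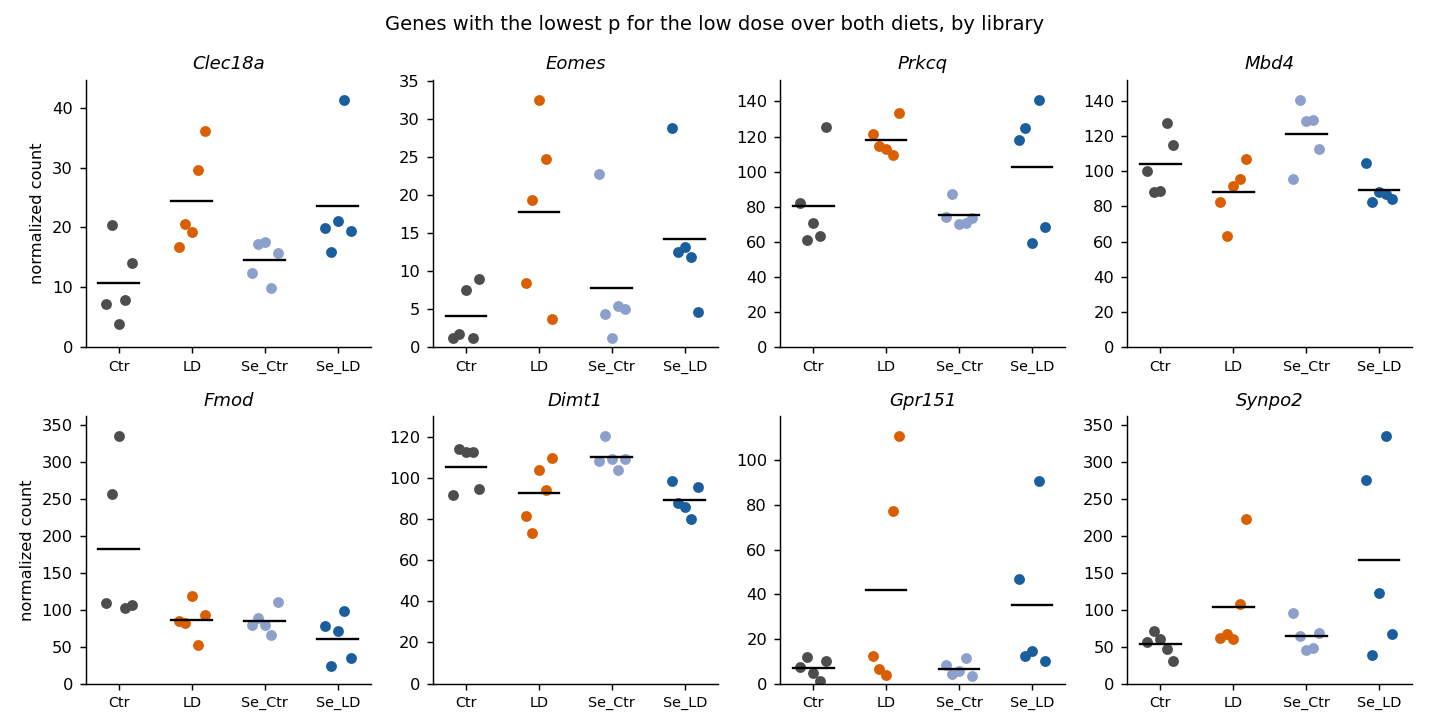
Normalized counts (y axis, linear from 0) of 8 genes named among the lowest p for the low dose, or from the thalamus list, in each of the 20 libraries, with 1 point per mouse and a bar at the group mean. Clec18a was higher and Mbd4 and Dimt1 lower in most low-dose mice, Fmod was high in 2 Ctr mice at 257 and 335, and Gpr151 and Synpo2 were high in a few low-dose mice, up to 111 and 335.

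Among the genes that were lower, Mbd4 (chromosome 6, 115790715 to 115803389), a DNA glycosylase that removes mismatched thymine at methylated CpG sites, had 104 ± 17 normalized counts in Ctr, 88.1 ± 16.5 in LD, 122 ± 17.5 in Se_Ctr and 89.4 ± 8.81 in Se_LD. Without selenium the groups overlapped widely. With selenium 4 of the 5 low-dose mice, at 82.8 to 88.3, lay below every Se_Ctr mouse. The log2 fold change was -0.34 ± 0.10 (exact p = 0.00413). Dimt1, which encodes a methyltransferase of 18S ribosomal RNA, had 105 ± 10.9, 92.4 ± 15, 110 ± 6.01 and 89.4 ± 7.49 in Ctr, LD, Se_Ctr and Se_LD, with a log2 fold change of -0.25 and an exact p = 0.00299. Its Se_LD mice, at 79.8 to 98.4, all lay below the Se_Ctr mice, at 104 to 120. Mtrf1l, a mitochondrial translation release factor, had a log2 fold change of -0.35 (exact p = 0.0011), and Foxj2, a forkhead factor, one of -0.18 (exact p = 0.00435). The SD of Foxj2 over mice lay between 14.5 and 34.7 normalized counts at group means of 248 to 296.

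Fbln5, an elastic fibre protein, and Slc27a2, a very long chain acyl-CoA synthetase, had their larger estimates without selenium. Fbln5 had 60.8 ± 13 normalized counts in Ctr and 37.2 ± 5.67 in LD, and no LD mouse, at 29.6 to 43.9, reached the lowest Ctr mouse, at 48.3. In Se_Ctr and Se_LD it had 37.2 ± 1.75 and 33.9 ± 3.92, and the pooled log2 fold change was -0.41 (exact p = 0.000535). Slc27a2 had 51.2 ± 8.04, 30.8 ± 11.4, 38 ± 4.17 and 34 ± 7.45 normalized counts in the 4 groups, with a pooled exact p of 0.00652. Tagap, a GTPase activating protein of lymphocytes, had 12.5 ± 3.63, 6.64 ± 3.24, 15.7 ± 4.84 and 11.3 ± 1.91 (exact p = 0.00567). Cd74, the invariant chain of class II antigen presentation, had 18.8 ± 14.8, 7.98 ± 6.59, 11.1 ± 3.86 and 7.68 ± 6.14 (exact p = 0.0454), and its groups overlapped in both diets. Its highest values, 23.8 and 42.5, were those of Ctr mice 2 and 3, which were also high in meninges genes. H2-Aa, a class II chain, was the other gene of the 18 in the list of activated microglia that differed, with a log2 fold change of -0.87 and an exact p = 0.0493 at a mean of 5.21 normalized counts. Without Ctr mice 2 and 3 the exact p was 0.169 for Cd74 and 0.197 for H2-Aa, and with the level of meninges genes as a covariate the log2 fold change of Cd74 was -0.57 instead of -1.08. No other gene of that list differed, and 1.10% of all genes tested were lower.

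The gene with the lowest limma p of all, 5.55e-05, was Slc45a2, a transporter of melanosomes, which has a mean of 2.41 normalized counts and is named here after its values were seen. It had no read in any of the 5 Ctr libraries and 2.49 to 6.44 normalized counts in the LD libraries. In the selenium diet it had 0.827 to 3.58 normalized counts in Se_Ctr and 2.64 to 4.63 in Se_LD. A count of 0 over the group allows a mean of up to 0.751 normalized counts in Ctr, taking 3 reads as the limit. The LD mean was 4.99-fold that value, which allows for no error of the LD mean and no spread between mice. In Se_Ctr, also without mercury, the mean was 2.29. Of the pooled comparison, those within each diet and the interaction, only LD against Ctr held a gene under an adjusted limma p of 0.05. That gene was Slc45a2, at 0.0265. In the selenium diet its exact p was 0.135. Of 5 other pigment cell genes looked up after this, Tyrp1, a melanosome enzyme, differed in both diets, with log2 fold changes of 1.69 and 1.28 (exact p = 0.0476 and 0.0317), and Pmel, Dct, Mlana and Tyr did not differ in the pooled comparison, with an exact p between 0.142 and 0.92. Dct, a melanin synthesis enzyme, differed in LD by 1.38, with an exact p of 0.183, and had an estimate of 0.25 with selenium. Tyrp1 was highest, at 10.9, 34.8, 11.7 and 21.4 normalized counts, in LD mice 4 and 5 and Se_LD mice 1 and 4, the mice that were also high in habenula genes. Without these 4 mice its pooled log2 fold change was 0.86 instead of 1.48 (exact p = 0.0485).

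Differences of the second kind were seen in markers of tissue next to the hippocampus. The habenula and the thalamus lie under the hippocampus, and Gpr151, Chrnb3, Slc5a7 and Pou4f1 mark habenula neurons. Gpr151 had a log2 fold change of 1.72 ± 0.50 (exact p = 0.00923 over both diets, 0.198 without and 0.0159 with selenium). Its normalized counts were 7.25, 11.9, 4.72, 1.13 and 10.2 in Ctr and 12.6, 6.44, 3.7, 77.1 and 111 in LD. The Se_Ctr mice had 8.55, 4.32, 5.86, 11.7 and 3.31, and the Se_LD mice had 46.9, 12.6, 14.5, 90.9 and 10.2. LD mice 4 and 5 and Se_LD mice 1 and 4 were thus high, and the other 6 low-dose mice lay between 3.7 and 14.5. Pou4f1, the POU factor of habenula neurons, had 46.5, 90.9, 32.5 and 70.2 normalized counts in the same 4 mice, 15.7 in Ctr mouse 1 and 2.84 or less in the other 15 libraries. Slc5a7, the choline transporter, differed with a log2 fold change of 1.19 (exact p = 0.0409), Chrnb3, a nicotinic receptor subunit, with 1.28 (exact p = 0.0919) and Rab37, a Rab GTPase of secretion, with 1.04 (exact p = 0.0438). Rab37 had 64.3, 117, 119 and 121 normalized counts in the same 4 mice and at most 43.7 in the other 16. Without these 4 mice, the log2 fold changes were 0.54 for Gpr151, 0.29 for Slc5a7, 0.13 for Chrnb3 and 0.12 for Rab37. The 4 mice were picked for their high values of habenula genes, so the fall of these estimates follows from the choice and is no test. Clec18a then had 0.66 (exact p = 0.0246), Eomes 1.44 (exact p = 0.029) and Prkcq 0.33 (exact p = 0.0845). At the high dose, against the same mice without mercury, the log2 fold changes were 0.73 for Gpr151, 0.42 for Clec18a, 0.98 for Eomes and 0.28 for Prkcq.

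Of the 13 genes of the thalamus list, 4 were higher and 0 lower, beside 1.47% of all genes tested. These were Synpo2, an actin-binding protein, Prkcd, protein kinase C delta, Plekhg1 and Rora, an orphan nuclear receptor of relay neurons, with exact p of 0.0235, 0.0603, 0.063 and 0.0759. All 12 thalamus genes with a mean of at least 10 had a positive estimate, with a median log2 fold change of 0.45 beside -0.002 for all genes of that level. With selenium 6 of the 13 were higher, beside 1.01% of all genes, and without selenium 0 of 13, beside 2.29%. Their summed level was 8385 in LD mouse 5, 8644 in Se_LD mouse 1 and 8763 in Se_LD mouse 4, and between 3424 and 5188 in the other 17 libraries. Synpo2 had 223, 275 and 335 normalized counts in these 3 mice and at most 123 in the other 17. Without the 4 mice high in habenula genes, 0 of the 13 were higher. Leaving out LD mouse 5, Se_LD mouse 1 or Se_LD mouse 4 alone left 1, 1 and 2 of the 4. The part of dissection in these differences was not tested, and in RNA of a whole tissue piece a change in the number of cells of a type cannot be told apart from a change of RNA per cell.

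**Figure D3:**
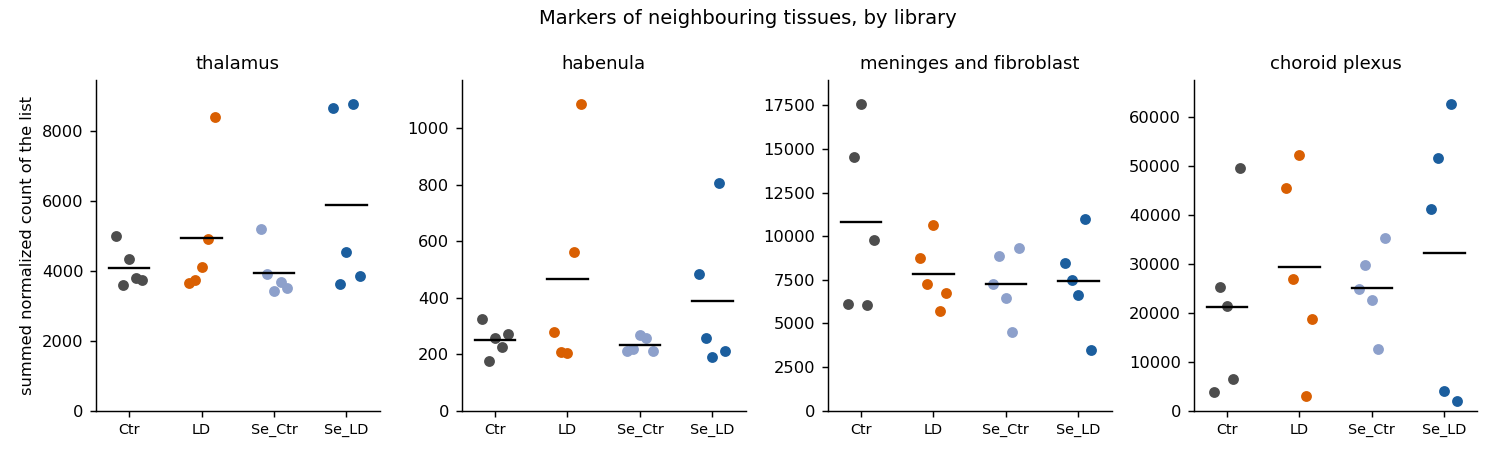
Summed normalized counts (y axis, linear from 0) of marker genes of thalamus, habenula, meninges and choroid plexus in the 20 libraries, with 1 point per mouse and a bar at the group mean. Thalamus sums of 8385 to 8763 were found in 3 low-dose mice, meninges sums of 14529 and 17569 in 2 Ctr mice, and choroid plexus sums spanned 1998 to 62593.

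Of 16 fibroblast genes of the meninges, 5 were lower and 0 higher, beside 1.10% of all genes tested, and the median log2 fold change was -0.27. These were Fmod, Col3a1, Ogn, Slc22a6 and Ptgds, the last 4 with exact p of 0.026, 0.0896, 0.0593 and 0.081. Fmod (chromosome 1, 135933831 to 135944854), the small proteoglycan fibromodulin, had the lowest limma p of the named genes that were lower. Its normalized counts were 109, 257, 335, 103 and 106 in Ctr and 84.7, 82.4, 119, 52.4 and 93.3 in LD. The Se_Ctr mice had 79.8, 89, 79.7, 65.4 and 110, and the Se_LD mice had 77.6, 24.3, 71.2, 97.5 and 34.3. Ctr mice 2 and 3 were thus far above the rest, and 4 of 5 LD mice lay below every Ctr mouse. The log2 fold change was -0.77 ± 0.23 (exact p = 0.0122). Ogn, or osteoglycin, was at 175 and 199 in Ctr mice 2 and 3, and Ptgds, the prostaglandin D2 synthase of the arachnoid and choroid plexus, at 7922 and 10310. The summed level of the list was 14529 and 17569 in these 2 mice and 3455 to 10968 in the other 18. Without them 1 of the 16 genes was lower, and the log2 fold change of Fmod was -0.50, in mice left out for their high level of the same list. Leaving out either mouse alone left 2 genes. The list held 7 lower genes without selenium, beside 2.31% of all genes, and 0 with selenium, beside 0.754%, and the difference of those counts was not tested. Of 12 genes of pericytes and smooth muscle, 2 were lower and 1 higher, beside 1.10% and 1.47% of all genes, with a list median of -0.03. Acta2 and Tagln, contractile genes of vascular smooth muscle, had log2 fold changes of -0.30 (exact p = 0.0746) and -0.35 (exact p = 0.0775), and without Ctr mice 2 and 3 their exact p was 0.334 and 0.348. Abcc9, a potassium channel subunit of pericytes, was higher by 0.24 (exact p = 0.0439), and without the 4 mice high in habenula genes its exact p was 0.224. The part of meninges or vessels left on the tissue was not tested.

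No choroid plexus gene differed over both diets, where limma was used on 24 genes, beside 2.57% of all genes. Their summed level lay between 1998 and 62593 normalized counts over the 20 libraries, and the median log2 fold change was 0.63 without selenium and -0.71 with selenium.

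Of the glial genes known to answer to mercury that are given here, 0 passed the test at the low dose. Gfap, the intermediate filament of astrocytes, had 1748 ± 222 normalized counts in Ctr, 1891 ± 232 in LD, 1792 ± 255 in Se_Ctr and 1817 ± 352 in Se_LD. Its log2 fold change over both diets had a 95% interval of -0.12 to 0.24 (exact p = 0.532). In a fit of all 30 libraries, which shares the mice without mercury, the log2 fold change was 0.06 at the low dose and 1.45 at the high dose. High-dose values are means over HD and Se_HD, where the summed level of reactive astrocyte genes was 6773 to 47598 and 4678 to 5774. C1qb, a chain of complement C1q made by microglia, had a low-dose log2 fold change of 0.11 beside 0.89 at the high dose, and C4b, complement of reactive astrocytes, -0.08 beside 1.27. Cd14, a lipopolysaccharide co-receptor, had 0.37 beside 1.35, with an interval of -0.15 to 0.90 at the low dose. Itgax, a marker of activated microglia, averaged only 3.08 normalized counts, and the 95% interval of its ratio of low dose to no mercury was 0.709 to 2.07. Of the 22 microglia genes 0 differed, of 17 complement genes 0, of 21 reactive astrocyte genes 0 and of 18 homeostatic astrocyte genes 0, beside 2.57% of all genes, a share at which lists of this size hold few or no genes. The 18 activated microglia genes held the 2 lower genes given above, Cd74 and H2-Aa. The median log2 fold changes of the 4 lists without a call were 0.01, 0.03, -0.06 and 0.04.

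**Figure D4:**
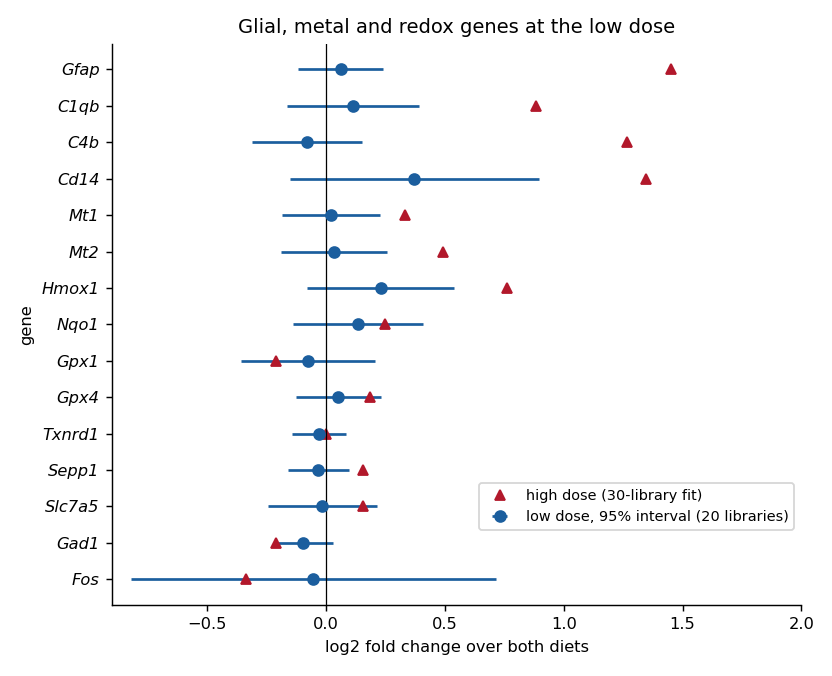
Log2 fold change (x axis) of 15 glial, metal, redox and neuronal genes over both diets, with circles and 95% intervals for the low dose (20 libraries) and triangles for the high dose in the fit of 30 libraries. Every low-dose interval includes 0. The high-dose estimates of Gfap, C1qb, C4b and Cd14, at 0.89 to 1.45, lie outside the low-dose intervals, with adjusted limma p of 0.0176 or lower. Those of Mt1, Mt2, Hmox1 and Sepp1 also lie outside, with adjusted limma p of 0.294, 0.154, 0.0684 and 0.539. An estimate outside an interval is no test of a difference between the doses.

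Mt1 and Mt2, the metallothioneins that bind mercury and zinc, had ratios of low dose to no mercury of 1.01 (95% interval 0.88 to 1.17) and 1.02 (0.878 to 1.19). Mt1 had 1026 ± 128 normalized counts in Ctr, 1066 ± 281 in LD, 872 ± 140 in Se_Ctr and 880 ± 148 in Se_LD. The 11 genes of metallothionein and zinc transport held 0 genes that differed, beside 2.57% of all genes, with a median log2 fold change of 0.03. Hmox1, heme oxygenase, had a ratio of 1.17 (0.946 to 1.45), and Nqo1, a quinone reductase, had 1.10 (0.907 to 1.33). Of 25 NRF2 targets only Gstm1, a glutathione transferase, differed, with a log2 fold change of 0.12 (exact p = 0.0267), and its limma p stayed under 0.05 in 9 of 20 fits that left out 1 library. Among 27 glutathione genes Gstm1 was again the only one, and 1 gene in a list of this size is close to the share of all genes.

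Of the 19 selenoprotein genes measured, 0 differed in the pooled comparison, beside 2.57% of all genes, so that the count does not set them apart. Gpx1 and Gpx4, glutathione peroxidases that carry selenocysteine, had ratios of 0.949 (0.78 to 1.15) and 1.04 (0.915 to 1.17). Txnrd1, the thioredoxin reductase of the cytosol, had 0.98 (0.906 to 1.06). Sepp1, which encodes the selenium carrier selenoprotein P, had 0.978 (0.895 to 1.07), with 1992 ± 204 normalized counts in Ctr, 1882 ± 244 in LD, 1865 ± 113 in Se_Ctr and 1896 ± 169 in Se_LD. Of 12 genes for selenium handling and 15 for superoxide and peroxide 0 differed, beside the same share. Slc7a5, the large neutral amino acid transporter that carries the complex of MeHg and cysteine, had a ratio of 0.989 (0.843 to 1.16).

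Gad1, which makes GABA, had a ratio of 0.935 (0.858 to 1.02), and the immediate early gene Fos had 0.963 with a wide interval of 0.566 to 1.64. Of 24 immediate early genes, 12 genes of excitatory and 16 of inhibitory neurons, 13 subunits of GABA-A receptors and 24 genes of synaptic vesicle release, 0 differed, beside 2.57% of all genes. Of 19 neuropeptide genes, Tac2, which encodes neurokinin B, was higher (0.58, exact p = 0.0772, and -0.03, exact p = 0.883, without the 4 mice high in habenula genes) and Cartpt lower (-0.70, exact p = 0.0586), at a mean of 4.54 normalized counts. Of 22 genes of hippocampal subfields Pcp4 differed (0.34, exact p = 0.0849) and Spink8 (0.25, exact p = 0.0747), and of 17 myelin genes Aspa (0.20, exact p = 0.0688). All 17 myelin genes had a positive estimate, with a median log2 fold change of 0.14. Their summed level was highest in Se_LD mice 1 and 4, at 63008 and 57922 normalized counts, and lay between 37051 and 56172 in the other 18 libraries. Each of these 3 genes kept a limma p under 0.05 in only 10 to 12 of the 20 fits without 1 library. Without the 4 mice high in habenula genes the estimate of Pcp4 was -0.01, that of Aspa 0.09 (exact p = 0.358) and that of Spink8 0.28 (exact p = 0.0724). Of the 42 gene lists, some of which share genes, 28 had no gene that differed, 8 had 1 and 6 had 2 or more, beside 2.57% of all genes. The median of 37 lists lay within 0.1 of 0.

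Circadian clock genes differed in the diet without selenium, and all but 1 did not in the pooled comparison. In the clock, ARNTL (BMAL1) and CLOCK bind E-boxes and drive Per, Cry, Nr1d, Bhlhe and Ciart genes, whose products act back on the pair, and DBP, TEF and HLF bind D-boxes such as those of the Per genes. All 22 genes of the list were measured. LD differed from Ctr in 10 of them (45.5%), beside 4.60% of all genes, and Se_LD from Se_Ctr in 0 of 22, beside 1.77%. Of the 10, 9 were lower and Arntl was higher, with exact p between 0.00794 and 0.0635. The interaction of dose and diet had an unadjusted p under 0.05 for 10 of 22 (45.5%), beside 785 of 20552 genes (3.82%). In the pooled comparison only Per2 differed (4.55% of the list). The lowest adjusted p of the list in LD against Ctr was 0.989.

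Per2 (chromosome 1, 93312561 to 93355907), a repressor of the clock, had 313, 296, 329, 406 and 371 normalized counts in Ctr and 204, 282, 276, 151 and 263 in LD. The Se_Ctr mice had 267, 244, 309, 212 and 288, and the Se_LD mice had 225, 249, 241, 251 and 330. All LD mice lay below all Ctr mice, and with selenium the groups overlapped. The log2 fold change was -0.57 without selenium (exact p = 0.00794, the smallest possible), -0.03 with selenium and -0.30 over both diets (exact p = 0.0298). Without the 4 low-dose mice high in habenula genes the pooled value was -0.19 (exact p = 0.154), and without Ctr mice 2 and 3 the exact p was 0.0593. The effect with selenium minus that without was 0.54, and its adjusted limma p was 0.998.

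Hlf, a D-box factor, had 1637, 1167, 1291, 1419 and 1155 normalized counts in Ctr and 1106, 908, 1042, 747 and 1200 in LD. With selenium it had 974 ± 170 without and 1121 ± 151 with the low dose. All but 1 of the LD mice lay below every Ctr mouse. The log2 fold changes of Hlf were -0.42 and 0.21 (exact p = 0.0238 and 0.19). Per3 had 355 ± 88.2 in Ctr, 233 ± 58 in LD, 249.5 ± 68.2 in Se_Ctr and 293 ± 67.8 in Se_LD. Nr1d2, which encodes the repressor REV-ERB beta, had 1052 ± 136, 723 ± 143, 767 ± 163 and 855 ± 222. Tef had 2721 ± 289, 2189 ± 270, 2438 ± 216 and 2511 ± 378. Gm129, now named Ciart, a repressor of the clock, had 70.2 ± 24.9, 42.2 ± 10.8, 42.2 ± 18.7 and 52.6 ± 15.2. Arntl, which was higher in LD, had 283 ± 51.9, 348 ± 21.9, 356 ± 44 and 326 ± 66.4.

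Bhlhe40, Bhlhe41 and Csnk1e, the remaining genes that were lower in LD, had log2 fold changes of -0.22, -0.28 and -0.21 without selenium and estimates close to 0 or above with selenium. Over the 9 lower genes the estimate lay between -0.66 and -0.21 without selenium and between -0.03 and 0.36 with selenium. The Ctr mean was the highest of the 4 groups in 8 of the 9 genes and was above the Se_Ctr mean in all 9, and the LD mean was the lowest in 7 of 9. Dbp, a D-box factor with a wide daily swing, had estimates of -0.48 and 0.34 (exact p = 0.167 and 0.294). In a fit with library number sets as a block, each set holding 6 libraries numbered in a row, Dbp and Per1 also had a limma p under 0.05 in LD, which makes 11 lower genes, and the exact p take no account of these sets. Over all alternatives the number of clock genes lower in LD lay between 7 and 11. Without the 4 low-dose mice high in habenula genes, Bhlhe41, Gm129 and Arntl no longer had a limma p under 0.05 in LD. The hour at which each mouse was killed is not given in the sources used here, so the part of sampling time was not tested.

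**Figure D5:**
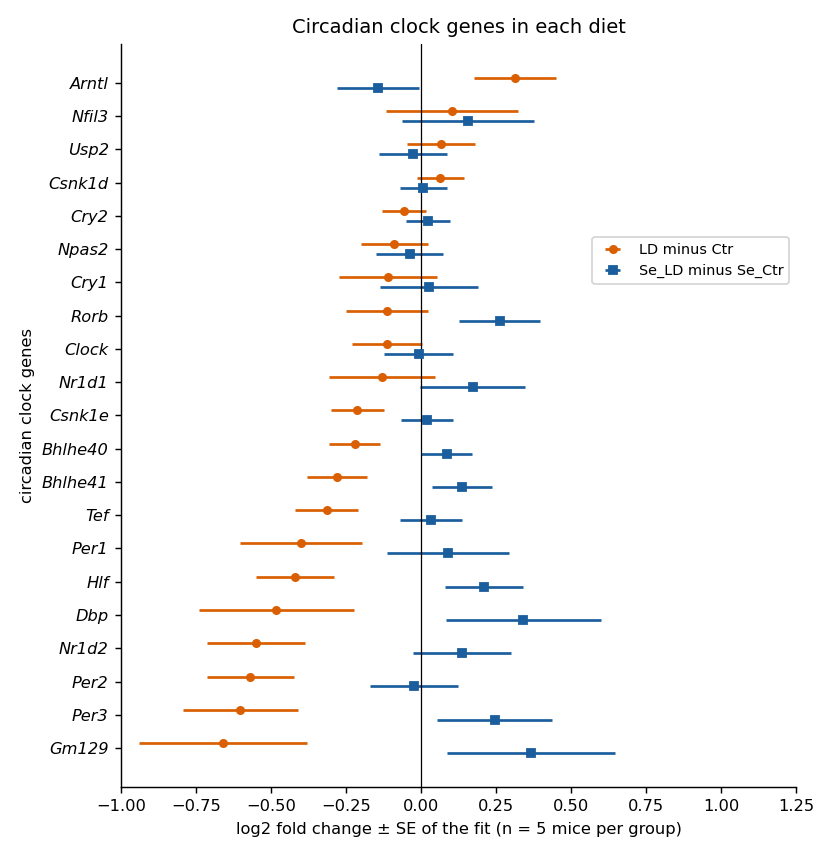
Log2 fold change (x axis) ± SE of the low dose for 21 of the 22 circadian clock genes (y axis), without selenium (circles) and with selenium (squares), from 5 mice per group. From Csnk1e down to Gm129 the circles lie left of 0 and the squares near or right of 0, from -0.03 to 0.36, and Arntl at the top shows the reverse.

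Promoter windows of the clock genes were read for the binding motifs of the clock. RefSeq windows (build GRCm38.p6, from 250 bases before to 50 after the transcript start) were matched for 18 of the 22 genes, Gm129 under its synonym Ciart, and 4 genes had no entry. The E-box CACGTG, which reads the same on both strands, stood in 6 of the 27 windows of these genes (5 genes) and in 7.15% of all 32851 windows. The D-box TTATGTAA, or TTACATAA on the other strand, stood in 1 of the 27 windows and in 0.938% of all windows. The motifs do not overlap each other. Of the 9 genes that were lower in LD, 7 had a window, of which 3 held the E-box and 1 the D-box. The windows of these 4 genes are printed because they hold a motif, 5′ to 3′ on the strand of the gene, with the motif in capitals. That of Ciart is at chr3:95882179-95882478 (minus strand), that of Tef at chr15:81802423-81802722 (plus strand), that of Bhlhe41 at chr6:145865371-145865670 (minus strand) and that of Per3 at chr4:151044616-151044915 (minus strand).
Ciart: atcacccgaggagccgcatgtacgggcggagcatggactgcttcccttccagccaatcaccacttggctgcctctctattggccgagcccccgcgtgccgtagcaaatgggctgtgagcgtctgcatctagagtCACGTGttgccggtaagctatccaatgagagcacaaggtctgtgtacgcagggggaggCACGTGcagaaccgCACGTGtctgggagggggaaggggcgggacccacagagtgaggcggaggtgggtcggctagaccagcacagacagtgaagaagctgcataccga
Tef: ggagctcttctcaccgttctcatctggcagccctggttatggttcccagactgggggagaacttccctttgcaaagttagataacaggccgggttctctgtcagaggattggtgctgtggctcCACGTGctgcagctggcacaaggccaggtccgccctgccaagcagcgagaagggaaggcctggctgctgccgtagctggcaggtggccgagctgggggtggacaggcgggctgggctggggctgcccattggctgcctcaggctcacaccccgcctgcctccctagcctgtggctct
Bhlhe41: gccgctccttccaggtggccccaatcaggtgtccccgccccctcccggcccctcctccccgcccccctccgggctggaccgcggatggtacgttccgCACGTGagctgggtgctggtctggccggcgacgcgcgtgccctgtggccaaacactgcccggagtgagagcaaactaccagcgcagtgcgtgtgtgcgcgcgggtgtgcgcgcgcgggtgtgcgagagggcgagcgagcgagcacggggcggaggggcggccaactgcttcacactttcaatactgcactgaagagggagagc
Per3: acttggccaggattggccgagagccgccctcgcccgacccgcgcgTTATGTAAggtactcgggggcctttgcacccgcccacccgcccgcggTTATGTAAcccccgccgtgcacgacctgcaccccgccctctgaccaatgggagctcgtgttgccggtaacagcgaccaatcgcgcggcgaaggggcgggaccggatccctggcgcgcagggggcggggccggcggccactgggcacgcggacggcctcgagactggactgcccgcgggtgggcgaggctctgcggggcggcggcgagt
Ciart holds 3 E-boxes, Tef and Bhlhe41 hold 1 each in the window shown, and Per3 holds 2 D-boxes. Per1 and Cry1 also hold an E-box and had exact p of 0.238 and 0.563 in LD, where Per1 differed only under some alternatives, such as edgeR and the library number sets. A match is a description of the sequence and no measure of binding in these mice.

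Outside the clock, the genes with the lowest interaction p among those averaging 10 or more had estimates of opposite sign in the 2 diets. Choosing genes by the difference between 2 estimates favours opposite signs. The signs and the exact p within each diet are therefore no test apart from that choice. Cav1 had 155 ± 16.9 normalized counts in Ctr, 132 ± 10.7 in LD, 122 ± 11.3 in Se_Ctr and 150 ± 9.32 in Se_LD. With selenium every low-dose mouse, at 142 to 165, lay above every Se_Ctr mouse, at 111 to 134, and without selenium the groups overlapped. The exact p was 0.0476 without and 0.00794 with selenium. Gna13 had 674 ± 40.2, 590 ± 35.6, 587 ± 35.1 and 662 ± 45.1 normalized counts in the 4 groups, with an exact p = 0.0238 in each diet. Ahnak, a large scaffold protein, had log2 fold changes of -0.53 and 0.27 (exact p = 0.0476 and 0.127), and Col11a1, a fibrillar collagen, 0.43 and -0.23 (exact p = 0.0159 and 0.159). Ahnak was highest in Ctr mice 2 and 3, at 687 and 539 normalized counts. Without these mice the log2 fold changes in LD were -0.27 for Ahnak and -0.18 for Cav1, neither with a limma p under 0.05, and the interaction p of both stayed under 0.05. In Cav1 and Gna13 the Se_Ctr mean was below the Ctr mean, as in the 9 clock genes that were lower in LD.

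Scube1, a secreted glycoprotein gene (chromosome 15, 83433013 to 83555451), had the lowest limma p in LD against Ctr, 7.45e-05, of the genes named here that average 10 or more. Scube1 had 124, 170, 242, 260 and 299 normalized counts in Ctr and 359, 489, 302, 446 and 521 in LD, so that all LD mice lay above all Ctr mice. With selenium it had 348 ± 80.7 and 336 ± 83.8, and the log2 fold change was 0.99 without and -0.05 with selenium (exact p = 0.00794 and 0.817). Its pooled log2 fold change was 0.47 (exact p = 0.0413), and its exact p was 0.183 without the 4 mice high in habenula genes and 0.111 without Ctr mice 2 and 3. Lhfpl1, Slc13a3, a dicarboxylate transporter, and Rhobtb2, an atypical GTPase, differed in LD by 0.99, -0.51 and -0.28. With selenium they had -0.28, 0.15 and 0.13, and 0 of the 3 differed in the pooled comparison, with exact p of 0.183, 0.163 and 0.362. The adjusted p of every interaction was 0.998 or higher.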

How the data were processed

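Hippocampal RNA of 30 mice, 5 per group, was sequenced in stranded single-end libraries with reads of 75 bp, and the 20 libraries of Ctr, LD, Se_Ctr and Se_LD were analysed here. Reads were trimmed with Trim Galore 0.4.2, mapped with HISAT2 2.0.4 to build NCBIM37, counted per gene with featureCounts and normalized with DESeq2 1.18.1 by the authors. What they deposited is a signal per gene and library, read counts divided by DESeq2 size factors taken over all 30 libraries. Every value was a whole number of reads after this division was undone (100% within 0.001), so reads could be recovered. The table holds 21412 genes, 21326 of them with a symbol, and no 2 libraries were identical.

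With limma 3.58.1 (R 4.3.3, trend), log2 values with a pseudocount of 1 were modelled as diet plus low dose, over 20552 genes with a sum of at least 10, and p-values were adjusted by Benjamini-Hochberg over all of them. Fold changes are on this scale, which understates those of low genes. Effects within each diet and their interaction came from a fit of the 4 group means. The alternatives were pseudocounts of 0.1 and 10, other filters, quantile normalization, size factors over 20 libraries, sets of 6 consecutive library numbers as a covariate, no trend, an ordinary linear model, all 30 libraries, edgeR 4.0.16 and DESeq2 1.42.0 on recovered reads, and each library left out. Levels of thalamus, meninges and choroid plexus genes as covariates, the removal of 4 low-dose or 2 Ctr libraries, and exact permutation tests of single genes were added after seeing the data. Genes named are the 10 lowest p in each direction among genes with a mean of at least 10 and 1 sign in both diets, the 5 largest changes in each direction, up to 4 members of a list, known responders and the 6 lowest interaction p, and the text leaves out some, since certain items are not reported here. The mouse groups, gene lists and tests were chosen with earlier results of these data known. Methods were tested on simulated data, drawn with the same setting of spread for every gene and with no libraries high in neighbouring-tissue genes. Such data lack the uneven spread seen here. Tables were made with Python, pandas and matplotlib.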

Additional observations from a re-analysis of the deposited data

Results flagged for a closer look

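Single libraries lay far from the other 4 of their group, by Dixon's ratio of the gap to the whole range above 0.71, in 19 of 300 groups of genes examined, where chance gives about 15. Among low-dose mice, the highest library was LD mouse 5 for Chrnb3 (ratio 0.808), Slc5a7 (0.725), Plekhg1 (0.861) and Rora (0.833), all genes of the habenula and thalamus lists, and the lowest was LD mouse 2 for Gad1 (0.742). With selenium and the low dose, the highest was mouse 4 for Clec18a (0.796) and Fbln5 (0.735), mouse 1 for Mbd4 (0.749) and mouse 5 for Per2 (0.75), and the lowest was mouse 4 for Arntl (0.739). Ctr mouse 1 was highest for Chrnb3 (0.88), Slc7a5 (0.724) and Rhobtb2 (0.756), and Ctr mouse 3 lowest for Nr1d2 (0.714). In Se_Ctr, mouse 1 was highest for Eomes (0.806) and Sepp1 (0.719), mouse 2 for Prkcq (0.78) and mouse 4 for Col11a1 (0.833), and mouse 4 was lowest for Gstm1 (0.782).

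The low-dose effect differed between the diets at an unadjusted interaction p under 0.05 in 21 of 74 genes examined, beside 3.82% of all genes tested. The 74 include genes chosen for their interaction, clock genes and genes known from earlier results of these data. The 21 are therefore no measure of how common such genes are. The adjusted limma p was 0.998 for each of the 21. The difference, as the log2 effect with selenium minus that without, was positive in Cav1 (0.52), Ahnak (0.79), Gna13 (0.37), Slc13a3 (0.66), Rhobtb2 (0.41), Fbln5 (0.54), Acta2 (0.57) and C4b (0.45). Without the 2 Ctr libraries high in meninges genes it was 0.41 in Fbln5, 0.20 in Acta2 and 0.33 in C4b, with no limma p under 0.05. It was negative in Scube1 (-1.04), Lhfpl1 (-1.27) and Col11a1 (-0.67). Of the clock genes it was positive in Gm129 (1.03), Per3 (0.85), Dbp (0.82), Nr1d2 (0.69), Hlf (0.63), Per2 (0.54), Bhlhe41 (0.42), Tef (0.35) and Bhlhe40 (0.31) and negative in Arntl (-0.46). Without the 4 low-dose libraries high in habenula genes, Fbln5, Acta2, C4b, Gm129, Dbp and Arntl no longer had a limma p under 0.05, with values of 0.50, 0.61, 0.19, 0.79, 0.62 and -0.24.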

How the results depend on the processing

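No gene had an adjusted p under 0.05 for the pooled low dose in any of 37 alternatives, where the lowest adjusted p lay between 0.318 and 1. With genes of a mean of at least 10 alone, 229 genes differed over both diets, 544 in LD, 192 in Se_LD and 494 in the interaction, and 8 differed in both diets, since fewer genes were tested. Leaving out 1 library gave 464 to 693 genes over both diets, 813 to 1288 in LD, 279 to 517 in Se_LD and 624 to 953 in the interaction. The 1 adjusted call in LD, Slc45a2, became 0 with DESeq2, edgeR, all 30 libraries, library number sets, the mean of at least 10, the meninges level, a pseudocount of 10, quantile normalization and without the 2 Ctr or the 4 low-dose libraries, and 0 to 2 with 1 library left out.

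Of the thalamus genes, 7 were higher with DESeq2 and with the meninges level, 9 with edgeR, 1 with an ordinary linear model, 0 with the thalamus level or without the 4 low-dose libraries, and 1 to 8 with 1 library left out. In the selenium diet it was 1 with an ordinary linear model and without trend, 0 with the thalamus level or without the 4 libraries, and 0 to 9 with 1 left out. Of the meninges genes, 2 were lower with all 30 libraries and with an ordinary linear model, 3 without trend, 1 with the meninges level or without the 2 Ctr libraries, 8 with the thalamus level or without the 4 low-dose libraries, and 2 to 7 with 1 left out, with 2 when that was Ctr 2, Ctr 3, LD 2 or Se_LD 5. Clock genes that differed with selenium were 1 with all 30 libraries and edgeR, and 0 to 3 with 1 left out. The cause of these shifts was not tested.

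Some estimates changed sign. Slc7a5 was 0.018 with DESeq2, 0.023 with edgeR, 0.113 with the thalamus level and 0.116 without the 4 low-dose libraries. With the thalamus level Mt1 was -0.002 and Mt2 -0.021. Without the 4 libraries Mt1 was -0.035, Mt2 -0.030, Pcp4 -0.012 (from 0.340, where it differed), Tac2 -0.028 (from 0.584, where it differed), Itgax -0.023 (from 0.276), Fos 0.268 and Gna13 0.012. Ahnak was 0.010 with the meninges level and 0.035 without the 2 Ctr libraries, where Gna13 was 0.006. With 1 library left out the range was -0.182 to 0.019 for Dbp, -0.321 to 0.163 for Fos, -0.036 to 0.013 for Gna13, -0.15 to 0.012 for Gpx1, -0.041 to 0.059 for Mt1, -0.035 to 0.075 for Mt2 and -0.076 to 0.056 for Slc7a5. The replicate numbers were given in accession order and pair no mice. The library numbers form 5 sets of 6, each with 1 library of every group, and with the set as a block 492 genes differed over both diets. Depth limits genes with a mean under 10, where few reads stand behind each value.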
